A study of Homo sapiens with 4 samples.

Results

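The S100 genes of chromosome band 1q21 are described here: S100A2, S100A3, S100A4, S100A6, S100A8, S100A9, S100A10, S100A11, S100A14 and S100A16. These 10 genes were chosen by name, with their values in these libraries already known, out of 17490 genes listed in at least 1 file. All 10 symbols matched an NCBI Gene ID in the H1975 files. In the HCC827 files 9 were listed, S100A8 being absent from both. Messenger RNA had been sequenced from H1975 and HCC827, established human lung adenocarcinoma cell lines that carry activating mutations of the receptor tyrosine kinase EGFR. Each line was profiled as cells sensitive and as cells resistant to an EGFR kinase inhibitor, which was osimertinib for H1975 and gefitinib for HCC827. Each of the 4 groups had 1 library, so differences between groups cannot be set against a spread between replicates, and no test was run. The sources used here do not state if drug was present when cells were collected, how the resistant lines were derived or whether each is 1 clone.

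S100 proteins are small calcium-binding proteins with a pair of EF-hand motifs, and most act as dimers. Inside the cell they bind annexins, myosins and other partners when calcium rises, and some are secreted and bind receptors such as RAGE (AGER) and TLR4. Most of the family lies in 1 cluster on 1q21 around the epidermal differentiation complex, whose genes encode the cornified envelope of squamous epithelium. In epithelial tumours the family is known for members that follow squamous or glandular differentiation and for S100A4, which is widely used as a marker of fibroblasts and of mesenchymal change.

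Library totals were 22145163 expected counts for sensitive and 22217897 for resistant H1975. The HCC827 libraries were about as deep as each other but shallower, at 10934558 and 11034837. Expected counts are RSEM's estimates of reads per gene, and all counts of the 10 genes were whole. FPKM, a level scaled to transcript length and library depth, was used for levels. Every ratio is the resistant over the sensitive library within a line, on scaled counts, with an exact 95% counting interval in brackets. A call, higher or lower, needed a 2-fold difference or more and an interval without the value of no change. The lung epithelial identity of the labels was checked on 8 markers. EPCAM had 150 and 2.85 FPKM in sensitive and resistant H1975, and 207 and 29.9 FPKM in HCC827. KRT8 and KRT18 had at least 353.93 FPKM in every library, were not called in H1975 and were called lower in HCC827. KRT7 had 1140 and 192.5 FPKM in H1975 and 841 and 328.6 FPKM in HCC827. KRT19 had 480.7 and 6.82 FPKM in H1975 and 1741 and 297 FPKM in HCC827. Both KRT7 and KRT19 were called lower in both lines. CDH1, or E-cadherin, had 85.6 and 0.73 FPKM in H1975 and 189 and 46.3 FPKM in HCC827. The lung markers were weak or lost in part of the libraries. NKX2-1 had 7.66 and 5.97 FPKM in H1975 and 25.4 and 0.08 FPKM in HCC827, and NAPSA had 0.32 and 0.09 FPKM in H1975 and 42.1 and 0.29 FPKM in HCC827. CDH1 in H1975 and NKX2-1 and NAPSA in HCC827 were considered only because of their sensitive library. The 8 markers summed to 2999 and 1018 FPKM in H1975 and to 7001 and 2124 FPKM in HCC827. In H1975 4 of 7 considered were called lower, beside 8.56% over all genes, and in HCC827 8 of 8, beside 11%. The part of that shift in the S100 values was not tested.

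Most of the S100 genes had lower values in both resistant libraries, by very different amounts. S100A14 was nearly lost in both lines. S100A9 and S100A2 were far lower in resistant H1975, while in HCC827 S100A9 and S100A2 were low in both libraries and not called. S100A8 was also lower in resistant H1975, but on only 26 and 4 counts. S100A6, S100A10 and S100A11, the abundant members, were lower by 1.44-fold to 3.11-fold, S100A16 hardly differed, and S100A3 was the only one of the 10 genes with higher values in both. In bulk RNA, fewer cells of a type and less RNA per cell cannot be told apart. Together the 10 genes held 0.225% of counts in sensitive H1975 (Wilson 95% interval 0.223 to 0.227) and 0.119% in resistant H1975 (0.118 to 0.120). In HCC827 they held 0.156% (0.154 to 0.159) and 0.0840% (0.0823 to 0.0857).

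**Figure D1:**
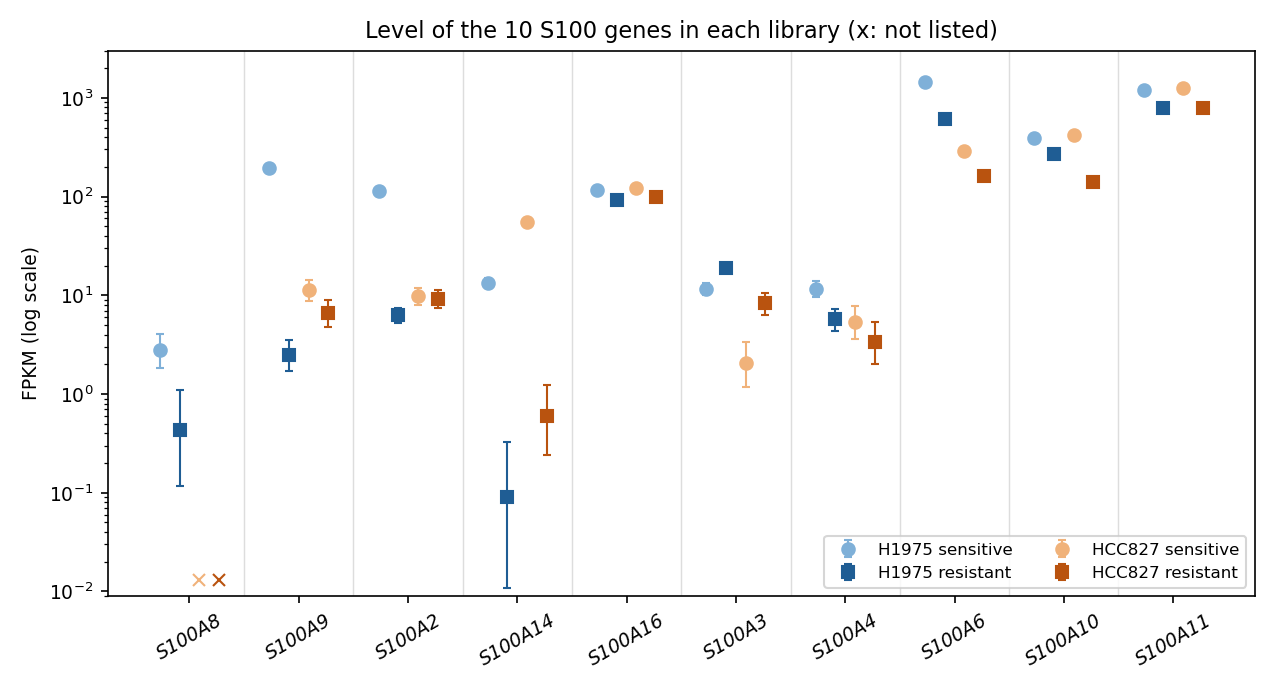
FPKM on a log axis for the 10 S100 genes (x axis) in the 4 libraries, 1 point per library, with exact 95% Poisson intervals of the counts as bars; circles are sensitive and squares resistant cells, and a cross marks a gene that was not listed. S100A14 had 13.3 and 0.09 FPKM in sensitive and resistant H1975 and 55.1 and 0.60 FPKM in HCC827, whereas S100A16 lay between 91.6 and 123 FPKM in all 4 libraries.

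In H1975 5 of the 10 genes were called lower and none higher, where 8.56% of the 11872 genes considered were called lower and 3.21% higher. In HCC827 2 of 9 were called lower and 1 higher, where 11% of 11890 genes considered were called lower (1302 genes) and 7.05% higher. A gene was considered where at least 1 library of the pair had 1 FPKM and 20 counts. In H1975 S100A8 and S100A14 passed that filter only through the sensitive library. In HCC827 S100A4 and S100A14 passed only through the sensitive and S100A3 only through the resistant library. The members' median log2 ratio was −1.09 in H1975 and −0.76 in HCC827, against 0.00 over all genes considered in either line. Since the genes were chosen with this contrast known, these counts and medians describe them and support nothing further.

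**Figure D2:**
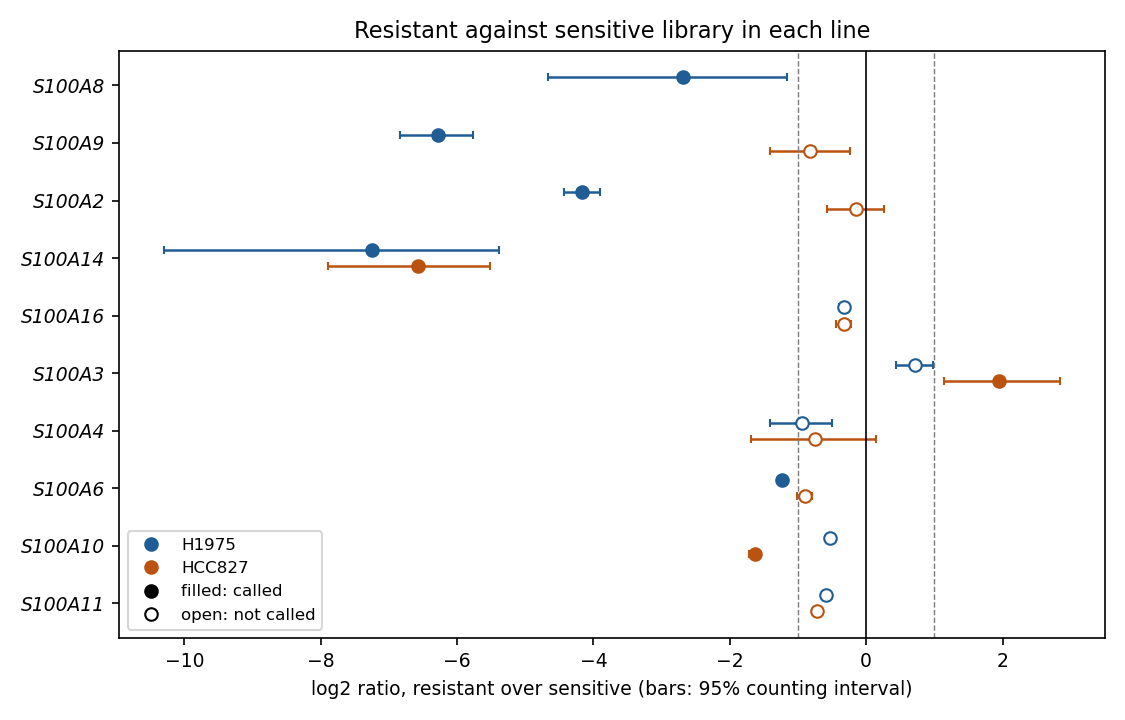
Log2 ratio of resistant over sensitive libraries (x axis) for each S100 gene, with exact 95% counting intervals as bars; blue is H1975, orange is HCC827, filled points were called and dashed lines mark 2-fold. S100A14 is the only member called in both lines, at −7.24 in H1975 and −6.57 in HCC827; S100A8 has no HCC827 point because it was not listed there.

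S100A14 encodes an epithelial S100 protein that sits at the plasma membrane of many epithelia. It had 305 counts (13.3 FPKM) in sensitive and 2 counts (0.09 FPKM) in resistant H1975, a log2 ratio of −7.24 [−10.30, −5.38], or 152-fold lower. In HCC827 it had 636 counts (55.1 FPKM) and 7 counts (0.60 FPKM), a log2 ratio of −6.57 [−7.89, −5.52], or 95.3-fold lower. Both sensitive libraries were thus far above both resistant ones, which were close to 0, and the intervals of the ratios overlapped between the lines. Of the 10 genes described, 9 were considered in both lines, and it was the only one called lower in both, as were 3.49% of 10961 genes considered in both. The H1975 files list 3 transcripts for it and those of HCC827 only 1. By rank of FPKM it went from 5542 to 13821 in H1975 and from 1321 to 12064 in HCC827.

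S100A16, a broadly expressed member, is the next protein-coding gene in RefSeq order and lies on the same strand. It had 3108 counts (116 FPKM) and 2464 counts (91.6 FPKM) in sensitive and resistant H1975, and 1606 (123 FPKM) and 1338 (99.9 FPKM) in HCC827. The log2 ratio was −0.33 in both lines, with intervals of [−0.40, −0.25] in H1975 and [−0.44, −0.23] in HCC827. All 4 libraries therefore lay within a narrow range, and neither ratio was called. Per length, S100A16 exceeded S100A14 by 8.76-fold in sensitive H1975 and 2.23-fold in sensitive HCC827, and by 1017-fold and 166-fold in the resistant libraries. The resistant values rest on 2 and 7 counts of S100A14 and are imprecise. On the other side of S100A14, S100A13 had 112 and 61.7 FPKM in H1975 and 36.8 and 26.6 FPKM in HCC827 (log2 ratios −0.85 and −0.56), and was not called either.

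The 250 bases before the starts of these adjacent genes are shown because 1 of them was nearly lost in both lines and the other was not. They come from RefSeq (GRCh38.p14, minus strand, 5′ to 3′). The files were made on hg19 and hold no coordinates. Capitals mark the letters CAGGTG or CACCTG, an E-box form that the repressors ZEB1, ZEB2 and SNAI2 can bind. S100A14 is chr1:153616326-153616575, with 1 match whose first base is 14 bases before the start, and S100A16 is chr1:153613138-153613387, its start farthest upstream, with matches at 191 and 178 bases. A further S100A16 window at another start held none.
S100A14: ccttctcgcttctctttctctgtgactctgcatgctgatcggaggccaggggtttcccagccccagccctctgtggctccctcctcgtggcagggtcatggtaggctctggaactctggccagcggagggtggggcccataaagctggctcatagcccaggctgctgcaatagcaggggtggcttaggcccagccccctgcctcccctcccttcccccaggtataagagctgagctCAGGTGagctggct
S100A16: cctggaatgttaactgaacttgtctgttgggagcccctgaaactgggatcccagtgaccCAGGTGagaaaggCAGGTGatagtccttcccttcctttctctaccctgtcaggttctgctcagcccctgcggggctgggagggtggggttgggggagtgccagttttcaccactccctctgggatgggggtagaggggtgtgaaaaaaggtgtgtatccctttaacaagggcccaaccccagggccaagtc

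S100A8 and S100A9 encode the subunits of calprotectin, a secreted inflammatory heterodimer that is most abundant in neutrophils and monocytes and is also made by stressed squamous epithelium. S100A9 had 2425 counts (196 FPKM) in sensitive and 31 counts (2.50 FPKM) in resistant H1975, a log2 ratio of −6.28 [−6.84, −5.77], or 77.8-fold lower. In HCC827 it had 69 counts (11.3 FPKM) and 41 counts (6.66 FPKM), a log2 ratio of −0.82 [−1.41, −0.24] that was not called. Sensitive H1975 stood alone at a high level, and the other libraries held 2.50 to 11.3 FPKM. S100A8 had 26 counts (2.79 FPKM) in sensitive and 4 counts (0.43 FPKM) in resistant H1975, a log2 ratio of −2.69 [−4.67, −1.16]. S100A9 thus exceeded its partner 70.2-fold per length in sensitive H1975 and 5.81-fold in resistant H1975.

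Markers of neutrophils, monocytes and macrophages were checked beside these values. CSF3R, FCGR3A and TYROBP were listed in no library, MPO had 1 count in sensitive HCC827 and none elsewhere, and PTPRC had 0.27 to 0.50 FPKM. Of the 12 markers, 3, 3, 2 and 3 reached 1 FPKM in sensitive and resistant H1975 and sensitive and resistant HCC827, and their summed level was 85.8, 91.4, 94.3 and 108 FPKM. CD68, a lysosomal protein of macrophages that other cells also make, held most of that sum, with 74.3 to 100.2 FPKM. In H1975 3 of the 12 were considered and 1 was called lower, beside 8.56% over all genes. That was CSF1R, a macrophage receptor, with 6.09 and 1.72 FPKM in sensitive and resistant H1975 (3.51-fold lower), in the same direction as S100A9. CD14 had 3.43 and 2.38 FPKM (log2 ratio −0.45) and was not called. CD68 went the other way, with 74.3 and 86.1 FPKM (log2 ratio 0.22), and was not called either. The part of such cells in the S100A9 values was not tested.

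S100A7, or psoriasin, an antimicrobial member not among the 10 genes, lies beyond S100A8 in the cluster and had the same direction as S100A9 in H1975. It had 431 counts (46.3 FPKM) in the sensitive library and had no listing in resistant H1975. Against a floor of 3 counts there, it was at least 143-fold lower. In sensitive HCC827 it had 1 count. Its near-identical copy S100A7A was listed in no library, and the S100A7 counts were whole.

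S100A2 is a nuclear and cytoplasmic member of basal and squamous epithelium that is known as a target of p53 and p63. It had 2395 counts (114 FPKM) in sensitive and 133 counts (6.31 FPKM) in resistant H1975, a log2 ratio of −4.16 [−4.43, −3.91]. In HCC827 it had 102 counts (9.84 FPKM) and 96 counts (9.17 FPKM), a log2 ratio of −0.16 [−0.57, 0.26]. The intervals of the lines did not overlap, and the difference between lines, with 1 library per group, was not tested. In order of level, sensitive H1975 was followed by sensitive HCC827, resistant HCC827 and resistant H1975, and these 3 lower libraries had overlapping intervals between neighbours. Of 6 other squamous markers, 2 were considered in H1975 and both were called lower, beside 8.56% over all genes. TP63 had 10.2 and 1.23 FPKM, and IVL had 1.90 and 0.02 FPKM. IVL passed the filter only through the sensitive library, so its lower call was nearly fixed in advance. In HCC827, where S100A2 was not called, 3 of the 6 markers were considered. TP63 (2.08 and 0.08 FPKM) and KRT14 (5.32 and 0.96 FPKM) were called lower. KRT5, not listed in the sensitive library and at 1.32 FPKM in the resistant one, was at least 10.8-fold higher. Over all genes considered there, 11% were called lower and 7.05% higher. TP63 and KRT14 passed only through the sensitive and KRT5 only through the resistant library, so these directions were nearly fixed in advance. The 6 squamous markers summed to 12.7 and 1.39 FPKM in H1975 and to 8.19 and 2.83 FPKM in HCC827, with KRT14 not listed in H1975, and their part in the S100A2 values was not tested.

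The windows before the S100A9 start (chr1:153357604-153357853, plus strand) and the S100A2 start farthest upstream (chr1:153565845-153566094, minus strand) are shown because these genes were the 2 with the largest difference between the lines. In S100A9 the capitals mark an E-box with its first base 92 bases before the start and a TATAAA at 29 bases. In S100A2 they mark TGACTCA, the AP-1 motif, at 52 bases. A second S100A2 window, at a start further downstream, held an E-box at 18 bases and no AP-1 motif.
S100A9: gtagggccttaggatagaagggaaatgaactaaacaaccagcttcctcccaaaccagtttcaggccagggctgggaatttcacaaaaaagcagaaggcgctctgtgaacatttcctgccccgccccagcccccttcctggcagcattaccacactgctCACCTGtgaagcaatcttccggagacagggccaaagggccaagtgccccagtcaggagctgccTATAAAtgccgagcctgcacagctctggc
S100A2: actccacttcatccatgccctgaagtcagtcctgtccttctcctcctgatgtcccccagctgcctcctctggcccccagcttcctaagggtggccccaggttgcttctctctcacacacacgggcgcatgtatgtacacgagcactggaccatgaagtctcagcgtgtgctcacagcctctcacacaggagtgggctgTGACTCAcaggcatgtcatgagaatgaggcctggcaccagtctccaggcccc

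S100A3, known from the hair cuticle, was the only member with higher values in both resistant libraries. It had 183 counts (11.6 FPKM) and 298 counts (18.8 FPKM) in sensitive and resistant H1975, a log2 ratio of 0.71 [0.44, 0.99], below the 2-fold call. In HCC827 it had 16 counts (2.05 FPKM) and 65 counts (8.27 FPKM), a log2 ratio of 1.95 [1.15, 2.84], or 3.87-fold higher. The libraries fell in the order resistant H1975, sensitive H1975, resistant HCC827 and sensitive HCC827, so each line's resistant library was above its own sensitive one, and sensitive H1975 and resistant HCC827 had overlapping intervals. In gene order S100A3 lies between S100A4 and S100A2, which both had lower values in the resistant libraries, though in HCC827 both intervals included no change. The window before its start (chr1:153549259-153549508, minus strand, with the AP-1 letters TGAGTCA in capitals at 225 bases) is shown because it is the 1 member that went the other way.
S100A3: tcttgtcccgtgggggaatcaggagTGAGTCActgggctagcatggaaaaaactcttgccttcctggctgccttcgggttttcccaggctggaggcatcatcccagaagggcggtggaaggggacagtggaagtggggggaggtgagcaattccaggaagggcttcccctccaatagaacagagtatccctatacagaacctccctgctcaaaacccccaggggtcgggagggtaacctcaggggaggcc

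S100A4, also called FSP1 or metastasin, binds non-muscle myosin and is often read as a mesenchymal marker, yet its values were lower in both resistant libraries. It had 124 counts (11.6 FPKM) and 64 counts (5.71 FPKM) in sensitive and resistant H1975, a log2 ratio of −0.95 [−1.40, −0.50]. In HCC827 it had 29 counts (5.42 FPKM) and 18 counts (3.38 FPKM), a log2 ratio of −0.76 [−1.69, 0.14], an interval that included no change. On deposited FPKM the H1975 difference was −1.02 and passed 2-fold. RSEM gave the gene a length of 512 bases in sensitive and 532.76 bases in resistant H1975, from its 2 listed transcripts. S100A4 ranked 6102 to 9356 among listed genes and was never an abundant transcript in these cells. Of its partners on the fixed list, MYH9, a non-muscle myosin heavy chain, had log2 ratios of −0.22 in H1975 and 0.78 in HCC827, and PPFIBP1 had −0.05 and −0.50, all not called. The 6 fibroblast markers summed to 15.6 and 10.7 FPKM in H1975 and to 1.88 and 5.31 FPKM in HCC827. Of those, 2 were considered in HCC827. LUM, a matrix proteoglycan, was called higher there (0.13 and 2.83 FPKM), beside 7.05% over all genes. COL1A1, at a log2 ratio of 0.32, was not called. LUM passed the filter only through the resistant library, so a higher call was nearly fixed in advance.

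The 3 abundant members accounted for most S100 transcript. S100A6, or calcyclin, a cytoplasmic member linked to proliferating cells, had 17193 counts (1449 FPKM) and 7288 counts (614 FPKM) in H1975 and 2081 (290 FPKM) and 1167 (161 FPKM) in HCC827. Its log2 ratio was −1.23 [−1.27, −1.19] in H1975, which was called, and −0.90 [−1.01, −0.80] in HCC827, which was not. In sensitive H1975 it ranked 19 among 16356 listed genes and held 41.4% of the summed FPKM of the 10 genes. The H1975 annotation lists 2 transcripts of S100A6 and the HCC827 annotation 1, so its FPKM is less comparable between lines than within one.

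S100A10, or p11, forms a heterotetramer with annexin A2 that binds plasminogen at the cell surface. It had 9065 counts (390 FPKM) and 6269 counts (269 FPKM) in H1975, a log2 ratio of −0.52 [−0.57, −0.48]. In HCC827 it had 4797 counts (418 FPKM) and 1618 counts (139.8 FPKM), a log2 ratio of −1.64 [−1.72, −1.55], or 3.11-fold lower. The sensitive libraries were the highest in both lines, and resistant HCC827 was the lowest of the 4. Its partner ANXA2 had 871 and 700.3 FPKM in H1975 and 991 and 794 FPKM in HCC827 (log2 ratios −0.31 and −0.37), not called in either line. AHNAK, a scaffold that the S100A10 and annexin A2 complex binds, had log2 ratios of 0.22 and −0.72, also not called.

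S100A11, which pairs with annexin A1, was the most even of the abundant members between lines. It had 14997 counts (1192 FPKM) and 9891 counts (784 FPKM) in H1975, and 7743 (1248 FPKM) and 4917 (785 FPKM) in HCC827. The log2 ratios were −0.59 [−0.63, −0.56] and −0.72 [−0.78, −0.67], neither called. Both sensitive libraries lay above both resistant ones, and the resistant libraries of the lines had overlapping intervals. ANXA1 had log2 ratios of −0.69 and −0.40 and was not called. With S100A6 lower, S100A11 was the highest member in resistant H1975 and in both HCC827 libraries, where it held 43.7%, 57.7% and 64.7% of the summed FPKM.

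Start regions of the 10 genes fell in 14 RefSeq windows of 250 bases, and all 10 genes had at least 1. S100A6 and S100A10 had 24 CpG dinucleotides in their window and S100A11 had 15, against a median of 11 over 35116 windows of all genes, and the other 7 genes had 1 to 7. These 3 genes were also the 3 highest by FPKM in each of the 4 libraries, a description over 10 genes. CAGGTG or its reverse complement CACCTG stood in 8 of the 14 windows, of S100A2, S100A4, S100A8, S100A9, S100A14 and S100A16, and in 17.5% of all windows. Of those 8, 3 are overlapping S100A8 windows that hold the same match. TGACTCA or TGAGTCA stood in 2 of 14 windows, of S100A2 and S100A3, and in 4.20% of all windows. TATAAA or TTTATA stood in 4 of 14, of S100A4, S100A9 and an overlapping pair of S100A8, and in 10.7% of all. AACCGGTT, the motif of the epithelial GRHL factors, was in none of the 14 windows and in 0.117% of all. No match overlapped another, and genes with an E-box included S100A14 as well as S100A16.

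Between S100A10 and S100A1, RefSeq order holds 63 protein-coding genes, of which 47 are not S100 genes. In H1975 5 of these 47 were considered and all 5 were called lower, beside 8.56% over all genes considered. They were IVL and the small proline-rich genes SPRR1B, SPRR2D, SPRR2A and SPRR2F, which encode cornified envelope proteins. All 5 had at most 0.07 FPKM in resistant H1975 and passed the filter only through the sensitive library, so a lower call was nearly fixed in advance. Each had at most 91 counts, and the SPRR counts were not whole, so reads shared among these similar genes make them uncertain. In HCC827 SPRR3 was the 1 gene considered, with 2 and 34 counts (log2 ratio 4.02 [2.06, 7.12]), and it passed only through the resistant library. Among the 10 protein-coding genes on each side, 14 of 20 were considered in each line, with median log2 ratios of −0.19 and −0.06. The nearest flanking genes, THEM4 and CHTOP, had log2 ratios of 0.27 and 0.12 in H1975 and 0.38 and 0.09 in HCC827. Of the flanking genes considered, 3 of 14 were called lower in H1975 and 4 of 14 in HCC827, beside 8.56% and 11% over all genes. OAZ3 (−1.46 and −1.05) and SLC27A3 (−1.80 and −1.78) were called lower in both lines, as were 3.49% of genes considered in both, and TDRKH in HCC827 (−1.61). In resistant H1975 OAZ3 had 16.64 counts (0.89 FPKM). The 1 other flanking gene called is not reported here. No flanking gene was called higher in either line.

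**Figure D3:**
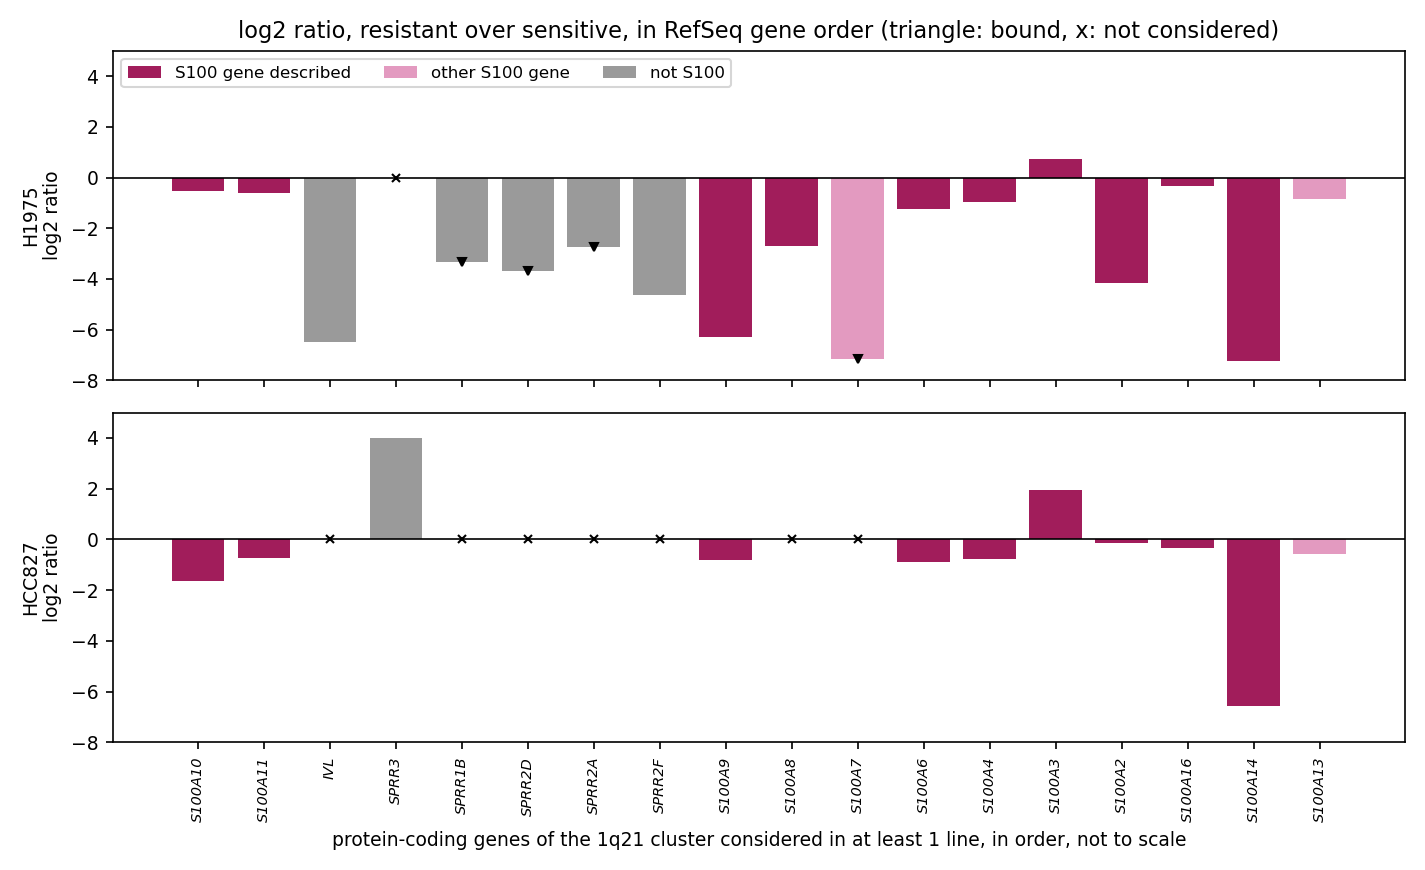
Log2 ratio of resistant over sensitive libraries (y axis) for protein-coding genes of the 1q21 S100 cluster that were considered in at least 1 line, in RefSeq order and not to scale; H1975 is above and HCC827 below. Bars of neighbouring S100 genes differ: S100A14 reaches −7.24 and −6.57 beside S100A16 at −0.33 in both lines, and S100A3 is above 0 between S100A4 and S100A2.

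Of the other S100 genes, S100A7 and S100A13 were considered in H1975 and S100A13 in HCC827. S100P, a member on another chromosome, had 10 counts in sensitive H1975 and none in resistant H1975, and 14 and 2 counts in HCC827, below the 20-count filter. S100A1, S100A5, S100A12, S100A7L2 and S100Z had at most 6 counts in any library, and S100B and S100G were listed in none.

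Of the 7 receptors of secreted S100 proteins 4 were considered in H1975 and none was called. In HCC827 MCAM, an adhesion molecule that binds S100A8 and S100A9, was higher by 14.3-fold (13.5 and 202 FPKM), and the other 4 considered were not called. AGER had at most 1.35 FPKM and TLR4 at most 0.71 FPKM in any library, while BSG, which binds S100A9, had 267 to 412 FPKM. Of 15 binding partners and related proteins, which include the secreted PLAT and PLG of the plasminogen system, 14 were considered in H1975. There ANXA6 was 3.36-fold higher and PLAT, the tissue plasminogen activator, 2.28-fold lower, beside 3.21% higher and 8.56% lower over all genes. In HCC827 12 were considered and SUGT1 was called higher, at 2.03-fold from counts that were not whole. ANXA6 was not listed in sensitive HCC827 and had 24 counts in resistant HCC827. The partners' median log2 ratio was 0.07 in H1975 and −0.17 in HCC827. Of 10 other EF-hand genes, none of 9 considered was called in H1975. In HCC827 9 were considered, and the reticular calcium binder CALU was 2.20-fold higher and the centrosomal CETN2 2.47-fold lower. For comparison with the receptors, partners and EF-hand genes, 3.21% of all genes considered in H1975 were called higher and 8.56% lower. In HCC827 these shares were 7.05% and 11%.

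Of the 10 genes described, 9 were considered in both lines, and 8 of those had lower values in both resistant libraries and 1 had higher, at any size of difference. Over all 10961 genes, 29.5% were lower in both and 30.3% higher in both. Counting intervals of the lines overlapped for S100A4, S100A14 and S100A16 and did not for the other 6. The largest differences between lines were in S100A9, whose H1975 log2 ratio less the HCC827 one was −5.46, and in S100A2, at −4.01. For S100A10 that difference was 1.11, since its HCC827 ratio was further below 0.

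**Figure D4:**
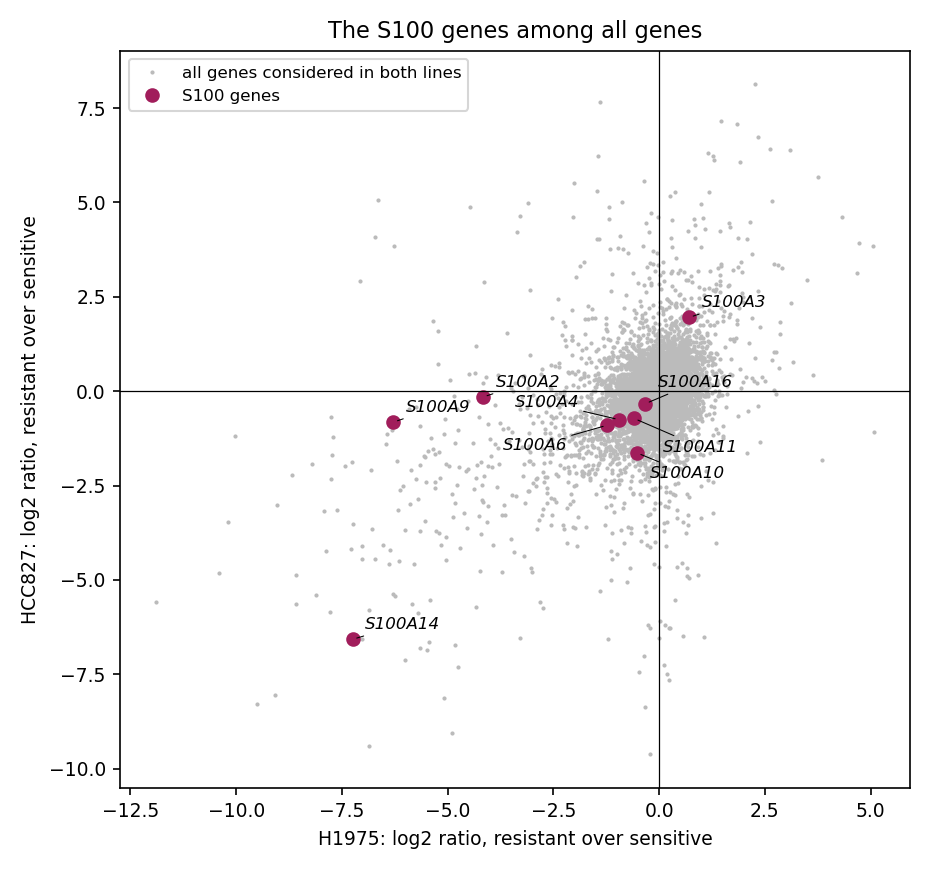
Log2 ratio of resistant over sensitive libraries in H1975 (x axis) and HCC827 (y axis) for 10961 genes considered in both lines (grey) and, among them, 9 of the 10 S100 genes described (red). S100A14 lies far to the lower left, S100A9 and S100A2 far left with HCC827 values of −0.82 and −0.16, and S100A3 is the 1 red point at the upper right.

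Genes with the most similar pair of log2 ratios were found by distance in that plane, over 2 lines, for the 3 members with the largest summed differences. Nearest to S100A14 were OVOL1 (−7.03 and −6.56, distance 0.22), an epithelial transcription factor, and FXYD3 and EPHA1, at distances of 0.87 and 0.91, whose H1975 values are bounds because neither was listed in the resistant library. In resistant H1975 and resistant HCC827 OVOL1 had 2 and 3 counts and S100A14 had 2 and 7. These distances are therefore small beside counting error. Nearest to S100A9 were CBLC (−6.32 and −1.04), AZGP1 (−6.44 and −1.15) and IL1B (−5.91 and −0.48), at distances of 0.23, 0.36 and 0.50. In resistant H1975 these had 5, 14 and 3 counts. Nearest to S100A2 were TPD52L1 (−3.87 and −0.36), THRB (−4.15 and 0.20) and GDF15 (−4.51 and −0.26), at distances of 0.35, 0.36 and 0.37. Their counts in resistant H1975 were 29, 11 and 28.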

How the data were processed

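Per the labels' protocols, cells were lysed in TRIzol, and an MGIEasy kit for mRNA gave the libraries. The submitters' processing notes name hg19, RSEM, Bowtie2 and HISAT2. The sources used here give no versions, settings or use of strand. The authors deposited RSEM expected counts and FPKM per NCBI Gene ID, listing only genes above 0. Deposited gene lengths were also read. Annotation versions differ between the lines, so levels across lines are less comparable. The 10 genes and all gene lists were chosen with earlier results of these data known.

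Expected counts were rounded. TMM factors (edgeR 4.0.16, R 4.3.3) were computed within each pair on the genes considered, those that reached 1 FPKM and 20 counts in either library. Intervals are Clopper-Pearson intervals of the conditional binomial (scipy 1.17.1). They cover counting error only, and reads are not unique molecules. A count of 0 was set to 3 counts, or to the count worth 0.01 FPKM where larger. Scripts were tested on simulated data. DESeq2 1.42.0 size factors served as an alternative. Named were the 10 genes, list genes that were called in either line, S100 genes considered, fixed partners ANXA1, ANXA2 and AHNAK, called neighbours and the nearest patterns; other list values were added after they were seen. Gene order and sequences come from RefSeq tables (GRCh38.p14). Protein sequences were not used here, and 1 neighbour is not reported here.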

Additional observations from a re-analysis of the deposited data

How the results depend on the processing

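No paired analysis was possible because each group has 1 library and no test was run. Changing the scaling to DESeq2 size factors or total counts, dropping the filter, or using deposited FPKM or log2(FPKM + 1) kept the number of S100 genes called within 1.5 times in each line. With a 1.5-fold call, S100 genes called higher in H1975 became 1 and those lower in HCC827 became 5; with a 4-fold call, 1 was lower and 0 were higher in HCC827. Over all genes, calls lower and higher at 1.5-fold were 1754 and 1105 in H1975 and 2269 and 1816 in HCC827. At 4-fold they were 457 and 97, and 458 and 309. With no filter, 1551 were lower and 585 higher in H1975, and on log2(FPKM + 1) 201 were higher there. No S100 gene changed sign under another scaling. On log2(FPKM + 1), S100A14 was at −3.71 in H1975 and −5.13 in HCC827, since that scale shrinks low values. Depth limits S100A8 and S100A14 most, with 4 and 2 counts in resistant H1975.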
